A study of Homo sapiens with 16 samples.

Results

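The 9 genes described here encode components of the epithelial tight junction: the claudins CLDN1, CLDN3, CLDN4, CLDN7, CLDN8 and CLDN12, the MARVEL-domain proteins OCLN (occludin) and MARVELD2 (tricellulin), and the scaffold TJP1 (ZO-1). They were chosen by name, with earlier results of these data known, and all 9 have a row among the 20166 gene symbols measured. The cells were RWPE1, an immortalised line of human prostate epithelium with a basal-like phenotype. One group of 6 libraries carried an altered pTRIPZ vector with no insert, another group of 6 over-expressed the wild-type form of the homeodomain transcription factor that the series studies, and the remaining 4 over-expressed its T164A mutant. By the labels the groups share the parental line. The labels do not say whether a group is a single clone or whether its libraries are separate cultures. Poly-A RNA was sequenced, and each value is a deposited log2 expression value of one library.

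Tight junctions seal the space between neighbouring epithelial cells near their apical side. Claudins are small proteins with 4 membrane-spanning segments that polymerise into strands, and the set of claudins a cell makes determines which ions pass between cells. Occludin sits along the strands, tricellulin at the corners where cells meet, and ZO-1 ties the strands to actin and organises their assembly. In the prostate this barrier separates the gland's secretions from the underlying tissue.

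Claudin patterns differed between the wild-type and T164A groups. Each group carried its own construct, so construct and cell population cannot be told apart. With the wild-type construct CLDN3, around the detection floor in vector cells, was expressed in every library, CLDN4, CLDN8 and CLDN12 were 2.12-fold to 3.3-fold higher, CLDN1 was 1.72-fold lower, and OCLN, MARVELD2 and CLDN7 did not pass the test. With T164A, 8 of the 9 genes were called lower than in vector, by up to 16.2-fold for CLDN1, where 27.2% of all genes were lower. Of these 8, CLDN3 had means under the floor in both groups. CLDN12 did not pass the test. Every one of the 9 was called higher in wild-type than in T164A libraries, where 26.7% of all genes were called higher.

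The estimated depth was 12300000 to 19200000 reads per library. On the deposited scale 3 reads correspond to 2.30 on average over libraries, which is used below as a floor that covers counting error only; for a group with a mean under this floor, the other group is compared with the floor instead. Libraries of a group were not equally alike. By the chi-square distance over 547 genes, wild-type replicate 14 and T164A replicate 93 stood apart from the other libraries of their groups. The vector libraries split into replicates 1 and 2 and replicates 3, 4 and 6, with replicate 5 close to neither set. Results that change without a library are given with the value lacking it. The p-values below set each group difference against a spread shared by the libraries of all groups. Since separate cultures are not stated, that spread may be technical. The values are not divided by gene length, so levels are compared between groups for one gene and not between genes.

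Markers of other cell states moved with the groups. The summed level of 8 prostate luminal markers was 8.27 to 8.53 (log2) in vector, 15.62 to 16.68 in wild-type and 10.39 to 10.50 in T164A libraries. All 8 rose with the wild-type construct, where 21.0% of all genes were called higher. The group means of KLK3 and KLK2 were under the floor in vector and T164A cells, although KLK3 reached 3.47 to 4.19 in vector replicates 3, 4 and 6. The 8 basal markers stood at 17.91 to 18.18 in vector, 17.14 to 17.62 in wild-type and 16.51 to 16.76 in T164A libraries. All 8 were lower with the wild-type construct (24.5% of all genes were). With T164A 6 were lower and 1 higher (27.2% and 37.1% over all genes). KRT5, a basal keratin, stood at 17.05, 16.52 and 15.46 in the 3 groups, while KRT6A went from 15.54 in vector to 11.33 in T164A and DSG3 from 13.44 to 9.27. ITGB4 was the 1 called higher with T164A, from 13.81 in vector to 14.50. KRT14, at 14.53 in vector and 14.31 in T164A, was not called. The group means of all 8 stayed above the floor in all 3 groups. The summed level of the 6 squamous markers fell in T164A from 14.81 to 14.99 down to 5.83 to 6.21. That of the 6 mesenchymal markers went from 12.32 to 12.67 up to 14.22 to 14.37. Of these 6, 4 were called higher and 2 lower, where 37.1% of all genes were called higher and 27.2% lower. COL1A1 was among the lower ones, with group means of 10.85 in vector and 9.24 in T164A. The sum of the 6 neural and embryonic markers went from 6.06 to 6.57 up to 14.12 to 14.22, all 6 being called higher. In wild-type libraries the sums of these 3 lists were 13.90 to 14.39, 12.31 to 12.58 and 9.31 to 10.25. Of the neural and embryonic markers, 2 were called higher with the wild type, 1 lower and 3 neither (21.0% higher and 24.5% lower over all genes). PRAME went from a mean of -0.15 in vector to 9.69 and NRN1 from 0.26 to 6.85, while UCHL1 fell from 6.12 to 5.18. The means of IRS4, DACH1 and POU3F3 were under the floor in both groups. Endothelial and leukocyte markers, 7 of 8 measured, summed to at most 7.61 in any library, with CDH5 and CD3E under the floor in all groups. The part of these shifts in the results below was not tested. In bulk RNA, fewer cells of a type and less RNA per cell cannot be told apart.

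Promoter windows of 3 members are shown. CLDN3 and CLDN4 are adjacent protein-coding genes on chromosome 7 that both rose with the wild-type construct, by very different amounts. The CLDN7 window shown holds the most E-boxes of any member window. Each window runs from 250 bases before to 50 bases after the annotated start, from RefSeq (GRCh38.p14), written 5′ to 3′ on the gene's strand. Capitals mark the E-box CAGGTG or its reverse complement CACCTG, the letters bound by zinc-finger repressors of epithelial genes such as ZEB1.
CLDN3, chr7:73770221-73770520, minus strand: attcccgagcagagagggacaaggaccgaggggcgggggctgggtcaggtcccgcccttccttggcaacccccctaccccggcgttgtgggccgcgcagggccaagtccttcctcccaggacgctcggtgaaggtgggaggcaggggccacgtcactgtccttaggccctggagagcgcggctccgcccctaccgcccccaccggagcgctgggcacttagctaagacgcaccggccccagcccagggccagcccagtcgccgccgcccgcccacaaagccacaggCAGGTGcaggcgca
CLDN4, chr7:73830746-73831045, plus strand: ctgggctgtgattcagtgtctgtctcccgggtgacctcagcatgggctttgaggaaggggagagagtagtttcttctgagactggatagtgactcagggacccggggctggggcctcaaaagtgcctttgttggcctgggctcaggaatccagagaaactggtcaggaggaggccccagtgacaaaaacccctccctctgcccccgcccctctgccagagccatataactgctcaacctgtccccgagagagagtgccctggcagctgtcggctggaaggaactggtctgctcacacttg
CLDN7, chr17:7262429-7262728, minus strand: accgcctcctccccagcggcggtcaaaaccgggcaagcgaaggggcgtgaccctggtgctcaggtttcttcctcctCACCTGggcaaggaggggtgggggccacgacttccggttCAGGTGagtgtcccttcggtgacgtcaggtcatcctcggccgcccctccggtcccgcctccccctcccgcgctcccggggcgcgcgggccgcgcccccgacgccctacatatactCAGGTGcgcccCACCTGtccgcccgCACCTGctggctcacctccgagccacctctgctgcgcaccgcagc
The CLDN3 window was 72% G or C and held 1 E-box, whereas the CLDN4 window was 59% G or C and held none. The CLDN7 window shown held 5 E-boxes, and another CLDN7 window, from chr17:7263164, held 0. RefSeq windows were found for 8 of the 9 members, 13 windows in all, since some genes have more than 1 start. The E-box was in 5 of these 13 windows and in 20.6% of all 35116 windows of the same length, both strands searched. The GC box GGGCGG was in 9 of 13 member windows and in 45% of all. The homeodomain motif TAAGTA was in 0 of 13 and in 5.84% of all, which says only that these letters are not in these windows.

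CLDN3 and CLDN4, which both bind the enterotoxin of Clostridium perfringens, rose with the wild-type construct, to very different degrees. CLDN3 in vector libraries was 1.03, 2.27 and 2.68 (lowest, median and highest), around the floor, with a group mean of 2.11 ± 0.64 (SD, n = 6) below it. In wild-type libraries it was 8.24, 8.93 and 9.09, a mean of 8.81 ± 0.31 (SD, n = 6). The T164A libraries were at -0.72, 1.16, -0.07 and 1.45, all under the floor. Every wild-type library lay far above every other library, and the wild-type mean was 91.4 times the floor level. The call was made by limma with an adjusted p of 1.25e-14 against vector and 3.36e-16 against T164A. T164A and vector means were both under the floor, so no fold is given for that pair, although limma called T164A lower at an adjusted p of 0.00035.

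CLDN4 was clearly expressed in all groups. Its lowest, median and highest values were 9.55, 9.67 and 9.94 in vector libraries and 10.67, 11.23 and 11.30 in wild-type libraries, and the T164A libraries were at 7.84, 7.67, 7.24 and 7.74. The 3 groups did not overlap, and their order was wild type, vector, T164A. The wild-type group was 2.76-fold higher than vector (log2 difference 1.46, SE 0.10, adjusted p = 6.06e-12 by limma). The T164A group was 4.17-fold lower than vector (log2 difference -2.06, SE 0.11, adjusted p = 9.37e-15 by limma). Of the 2 neighbours on chromosome 7, CLDN4 thus stood well above the floor in T164A cells while CLDN3 did not.

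CLDN8, known as a barrier-forming claudin of the kidney collecting duct, was low in this line. Vector libraries were at 3.47, 4.33 and 5.14 (lowest, median and highest), wild-type libraries at 5.55, 6.12 and 6.35, and T164A libraries at 2.10, 0.64, 3.02 and 1.75. The groups again did not overlap. The wild-type group was 3.3-fold higher than vector (log2 difference 1.72, SE 0.32, adjusted p = 6.62e-05 by limma). The T164A mean, 1.88, lay under the floor; the vector mean was 4.14 times the floor level and the wild-type mean 13.7 times, and limma called T164A lower than vector at an adjusted p of 8.2e-07.

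CLDN12, an atypical claudin whose tail lacks the PDZ-binding motif of most claudins, rose with the wild-type construct. Its values were 10.12, 10.20 and 10.31 in vector libraries, 11.03, 11.27 and 11.55 in wild-type libraries (lowest, median and highest) and 10.04, 10.01, 10.35 and 10.07 in T164A libraries. Wild-type libraries lay above all others, by 2.12-fold against vector (log2 difference 1.09, SE 0.07, adjusted p = 1.84e-12 by limma) and by 1.17 (log2, SE 0.08) against T164A (adjusted p = 8.06e-13). Vector and T164A libraries overlapped. Their difference was -0.09 (log2), with a 95% interval of -0.25 to 0.07 and an adjusted p of 0.358 by limma, and it passed the threshold after quantile normalization (-0.19, adjusted p = 0.0387; 0.0254 to 1 over 24 alternatives).

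CLDN1, the claudin that seals the epidermal barrier, was the member that fell furthest in T164A. It was 10.35, 10.40 and 10.50 in vector libraries, 9.31, 9.63 and 9.95 in wild-type libraries (lowest, median and highest), and 6.18, 6.46, 6.57 and 6.38 in T164A libraries. No 2 groups overlapped. It was the sole member lower with the wild-type construct, by 1.72-fold (log2 difference -0.78, SE 0.08, adjusted p = 1.68e-08 by limma), and it was 16.2-fold lower with T164A (log2 difference -4.02, SE 0.09, adjusted p = 4.67e-22).

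CLDN7, which binds the adhesion molecule EPCAM, had values of 11.495, 11.55 and 11.73 in vector libraries, 11.45, 11.77 and 11.79 in wild-type libraries and 9.92, 10.09, 9.44 and 9.82 in T164A libraries. T164A lay below both other groups, by 3.37-fold against vector (log2 difference -1.75, SE 0.09, adjusted p = 2.68e-15 by limma). Wild-type and vector libraries overlapped, with a log2 difference of 0.14 (SE 0.08), an interval of -0.02 to 0.31 and an adjusted p of 0.155 by limma. The lowest wild-type value was that of replicate 14; without it the difference was 0.20 and was called (adjusted p = 0.0356; 0.0123 to 1 over 24 alternatives).

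**Figure D1:**
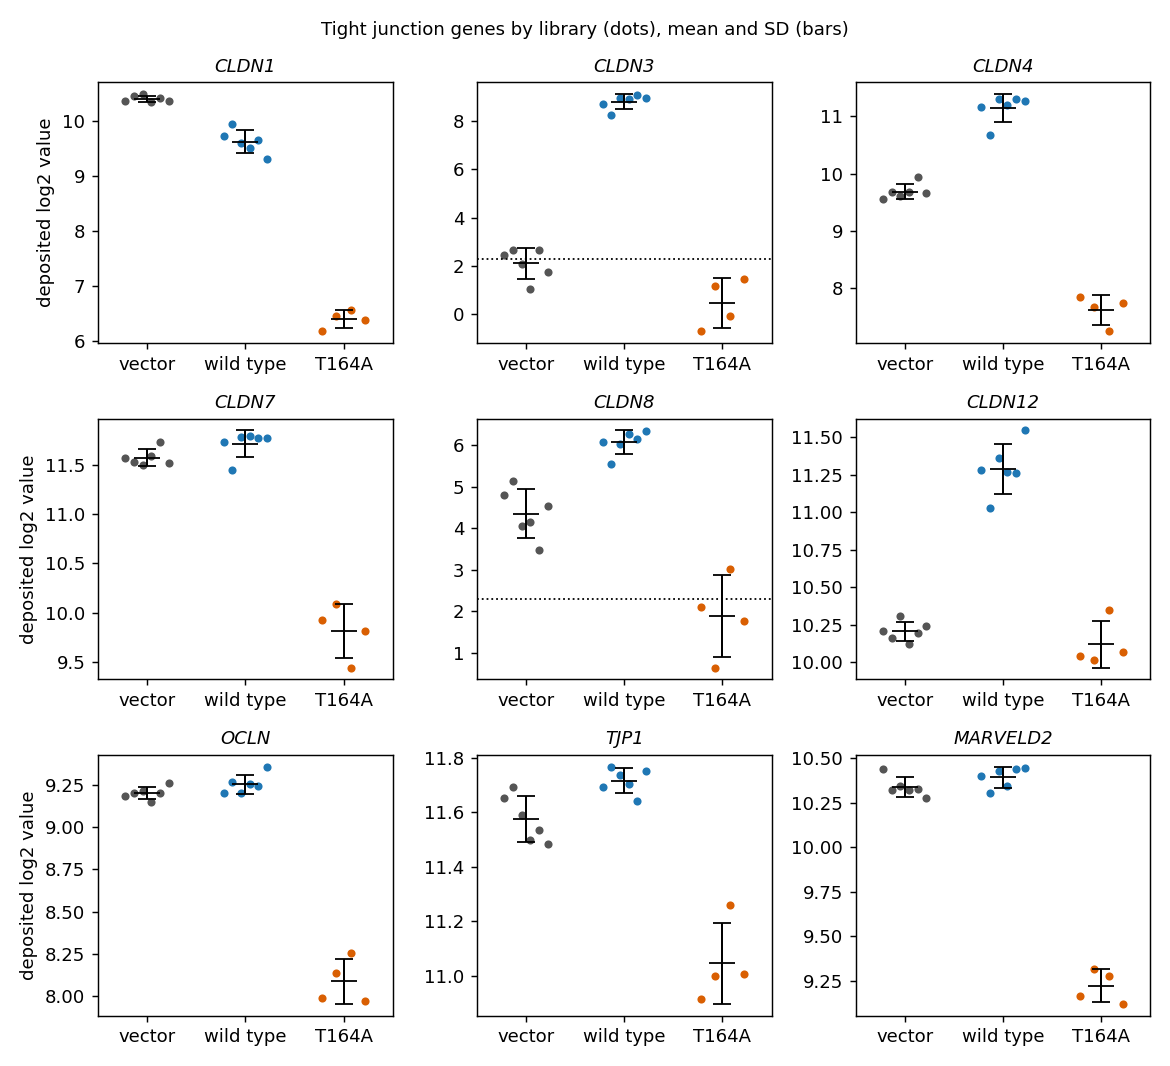
Deposited log2 value (vertical axis, scaled per panel) of the 9 members in each library (dots) of the vector, wild-type and T164A groups (horizontal axis), with the group mean and SD (bars). CLDN3, CLDN4, CLDN8 and CLDN12 are highest in wild-type libraries, and for every member except CLDN3 and CLDN12 all T164A libraries lie below all vector libraries.

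OCLN and MARVELD2, adjacent protein-coding genes on chromosome 5, differed between groups by similar amounts. OCLN was 9.14, 9.20 and 9.26 in vector libraries, 9.20, 9.25 and 9.36 in wild-type libraries (lowest, median and highest), and 7.99, 8.14, 8.25 and 7.97 in T164A libraries. MARVELD2 was 10.28, 10.32 and 10.44, then 10.30, 10.41 and 10.44, and 9.17, 9.32, 9.28 and 9.12 in the same order. For both genes the T164A libraries lay below all others, while vector and wild-type libraries overlapped. The T164A group was 2.16-fold lower than vector for OCLN (log2 difference -1.11, SE 0.07, adjusted p = 6.22e-14 by limma) and 2.17-fold lower for MARVELD2 (log2 difference -1.12, SE 0.06, adjusted p = 2.61e-15). Wild type differed from vector by 0.05 for OCLN (interval -0.07 to 0.17, adjusted p = 0.525 by limma) and by 0.05 for MARVELD2 (interval -0.05 to 0.16, adjusted p = 0.425). A partial near-identical copy of OCLN lies nearby on chromosome 5, and the sources used here do not say how reads shared with it were counted, so the OCLN values are uncertain.

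TJP1, the ZO-1 scaffold, was the member with the smallest change in T164A among those that passed the test. Its values were 11.49, 11.56 and 11.70 in vector libraries, 11.64, 11.72 and 11.77 in wild-type libraries (lowest, median and highest) and 10.915, 11.001, 11.26 and 11.01 in T164A libraries. T164A libraries did not overlap with the others and were 1.44-fold lower than vector (log2 difference -0.53, SE 0.06, adjusted p = 2.89e-08 by limma). Wild-type and vector libraries overlapped, with a difference of 0.14 (SE 0.06, interval 0.02 to 0.25, adjusted p = 0.0429 by limma), which is just inside the threshold. The call was lost under 13 of 24 alternatives, and the adjusted p ranged from 0.00114 to 1. It was lost without vector replicate 3, 4, 5 or 6, without wild-type replicate 13, 14, 15, 16 or 18, or without T164A replicate 92, while the difference stayed at 0.12 to 0.16 whichever library was left out.

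By these calls 5 members were higher and 1 lower with the wild-type construct, where 21.0% of all genes were called higher and 24.5% lower. With T164A, 0 members were called higher and 8 lower, where 37.1% of all genes were called higher and 27.2% lower. The members were chosen with earlier results of these data known, so the shares stand beside the counts and test nothing. Of those 8, 7 had a mean above the floor in at least 1 of the 2 groups and CLDN3 did not. Wild-type exceeded T164A for 9 members and fell below it for 0, against backgrounds of 26.7% and 35.1%. The median member difference was 0.14 (log2) for wild type minus vector, -1.66 for T164A minus vector (-1.12 with low groups set to the floor) and 1.89 for wild type minus T164A, beside -0.05, 0.11 and -0.08 over all genes. These comparisons share libraries, so they are not independent of each other.

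In the direct comparison of the constructs all 9 members were called higher in wild-type libraries, where 26.7% of all genes were called higher. The largest gaps among genes above the floor in both groups were 11.49-fold for CLDN4 (log2 difference 3.52, SE 0.11, adjusted p = 3.28e-19 by limma) and 9.4-fold for CLDN1 (3.23, SE 0.09, adjusted p = 3.79e-20). CLDN7 was 3.72-fold higher in wild-type cells (1.89, SE 0.09). CLDN12, MARVELD2 and OCLN stood 2.25-fold, 2.25-fold and 2.24-fold higher. The smallest gap was that of TJP1, at 1.59-fold (0.67, SE 0.06, adjusted p = 5.05e-10). The gap for CLDN4 combined a rise with the wild-type construct and a fall with T164A, whereas for CLDN1 both groups were below vector.

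**Figure D2:**
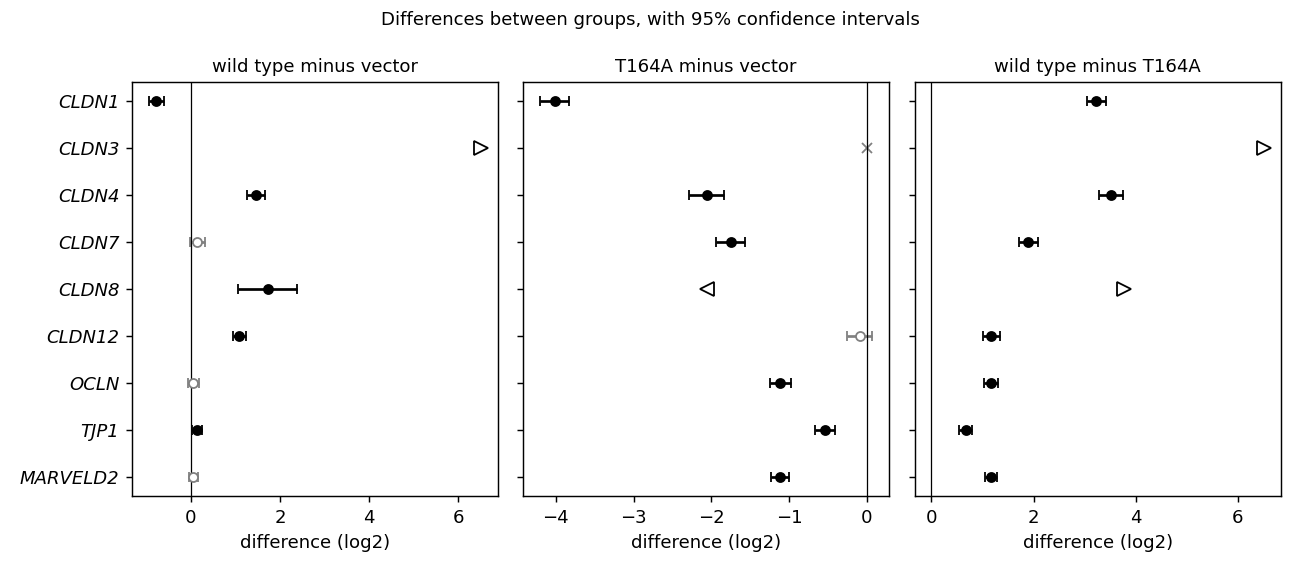
Difference in log2 value between groups (horizontal axis) for the 9 members (vertical axis), with 95% confidence intervals, one panel per pair of groups; open grey points were not called, open triangles are differences from the floor, and the cross marks CLDN3, where both means lie under the floor. In T164A minus vector the points run from -4.02 for CLDN1 to -0.09 for CLDN12, whose interval includes 0.

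The members varied among wild-type libraries too. Replicate 14 was the lowest wild-type library for 6 of the 9 members (CLDN3, CLDN4, CLDN7, CLDN8, CLDN12 and MARVELD2) and the highest for CLDN1 and TJP1. Replicate 18 was the reverse in part, highest for 4 members and lowest for CLDN1. The summed luminal marker level was lowest in replicate 14 (15.62) and highest in replicate 18 (16.68), the other 4 being at 16.30 to 16.51. Basal marker sums were 17.59 in replicate 14 and 17.14 in replicate 18. The part of the luminal markers in the spread of the members was not tested.

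**Figure D3:**
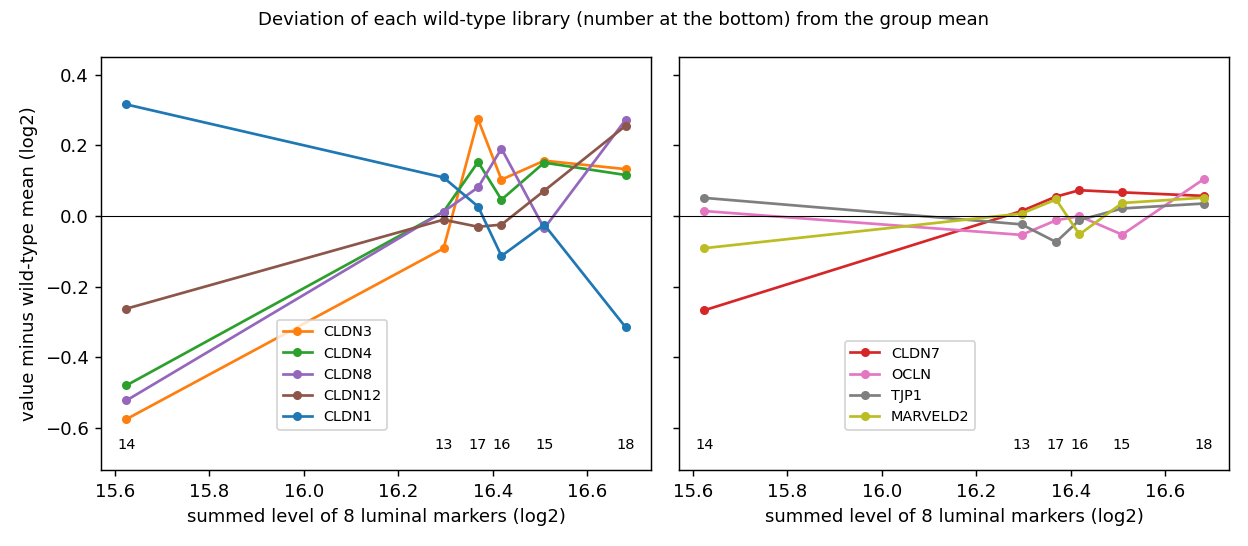
Deviation of each wild-type library from the wild-type mean (vertical axis, log2) for the members, against the summed level of 8 luminal markers in that library (horizontal axis, log2); lines join the 6 libraries of a gene, numbered at the bottom. Replicate 14, at 15.62, is lowest for 6 members.

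Among the T164A libraries, replicate 93 was the highest for CLDN1, CLDN8, CLDN12, OCLN and TJP1 and the lowest for CLDN4 and CLDN7. In vector cells replicate 5 was highest for CLDN4 and CLDN7 and lowest for CLDN8.

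Of 17 other claudins measured, 1 was called higher and 3 lower with the wild-type construct, where the shares over all genes were 21.0% and 24.5%. With T164A 4 were higher and 6 lower, where the shares over all genes were 37.1% and 27.2%. These counts are not read as a result about the list. After quantile normalization these counts were 1 and 6, and 3 and 9. Over all 20166 genes they were then 3775 and 6136, and 6201 and 6940. Above the low range CLDN9 fell in both groups, from 7.72 ± 0.18 (SD, n = 6) in vector to 7.00 ± 0.15 (SD, n = 6) with the wild type and 5.84 ± 0.39 (SD, n = 4) with T164A. CLDN15 fell with the wild type by 0.50 (SE 0.10, adjusted p = 0.0001 by limma). Its T164A difference was -0.22 (adjusted p = 0.0745), and it ran from -0.43 to -0.10 over 24 alternatives (adjusted p 0.00133 to 0.819). It passed the threshold under 4 of them, at -0.43 after quantile normalization, at -0.36 with close libraries averaged, at -0.27 without vector replicate 2 and at -0.28 without T164A replicate 94, and it was -0.10 without T164A replicate 93. CLDN18, chosen after its values were seen, rose with T164A from 2.57 ± 0.54 (SD, n = 6) in vector to 4.77 ± 0.43 (SD, n = 4), against the direction of the members.

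Of 11 other membrane proteins of the tight junction, 4 were higher and 6 lower with T164A, and 1 was higher and 4 lower with the wild type, beside the same shares over all genes (37.1% and 27.2%, then 21.0% and 24.5%). F11R (JAM-A), an adhesion molecule of the junction, was 12.81 in vector, 12.26 in wild-type and 11.57 in T164A libraries. MARVELD3, another MARVEL-domain protein of the junction, fell by 1.51 (log2, SE 0.07) with T164A and by 0.26 (SE 0.06) with the wild type, the latter call being lost under 2 of 24 alternatives (adjusted p up to 0.929). LSR, which recruits tricellulin to cell corners, fell by 1.14 with T164A (SE 0.09, adjusted p = 1.65e-11 by limma). Its wild-type difference was -0.20 (SE 0.08, adjusted p = 0.049 by limma), a call lost under 13 of 24 alternatives (adjusted p 0.0149 to 1), at -0.13 without vector replicate 5 and -0.17 without wild-type replicate 14. CXADR, a virus receptor at junctions, fell by 0.23 with T164A (SE 0.08), a call lost under 3 of 24 alternatives, among them leaving out T164A replicate 91 (-0.16). JAM3, chosen after its values were seen, moved the other way, from 6.10 in vector to 10.04 with T164A.

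Of 16 scaffolds listed, 15 were measured. With T164A 9 rose and 6 fell (37.1% and 27.2% over all genes), and with the wild type 5 rose and 5 fell (21.0% and 24.5% over all genes). TJP3 (ZO-3) fell by 2.18 (log2, SE 0.16) with T164A. It rose by 0.48 (SE 0.15) with the wild type, a call lost under 3 of 24 alternatives (adjusted p 0.00153 to 0.541), among them quantile normalization (0.20). CGN, the cingulin scaffold of the cytoplasmic plaque, rose in both groups, from 8.39 ± 0.15 (SD, n = 6) in vector to 9.02 ± 0.14 (SD, n = 6) and 9.65 ± 0.13 (SD, n = 4). PARD3, a polarity protein, fell by 0.40 (SE 0.07) with the wild type and by 0.23 (SE 0.08) with T164A. Each of these calls was lost under 2 of 24 alternatives, a minimum fold of 1.2 and close libraries averaged (adjusted p up to 0.102 and 0.818). AMOT (angiomotin) and CGNL1 (paracingulin), both chosen after their values were seen, also rose in both groups, AMOT by 8.03 with T164A and CGNL1 by 3.16 with the wild type.

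**Figure D4:**
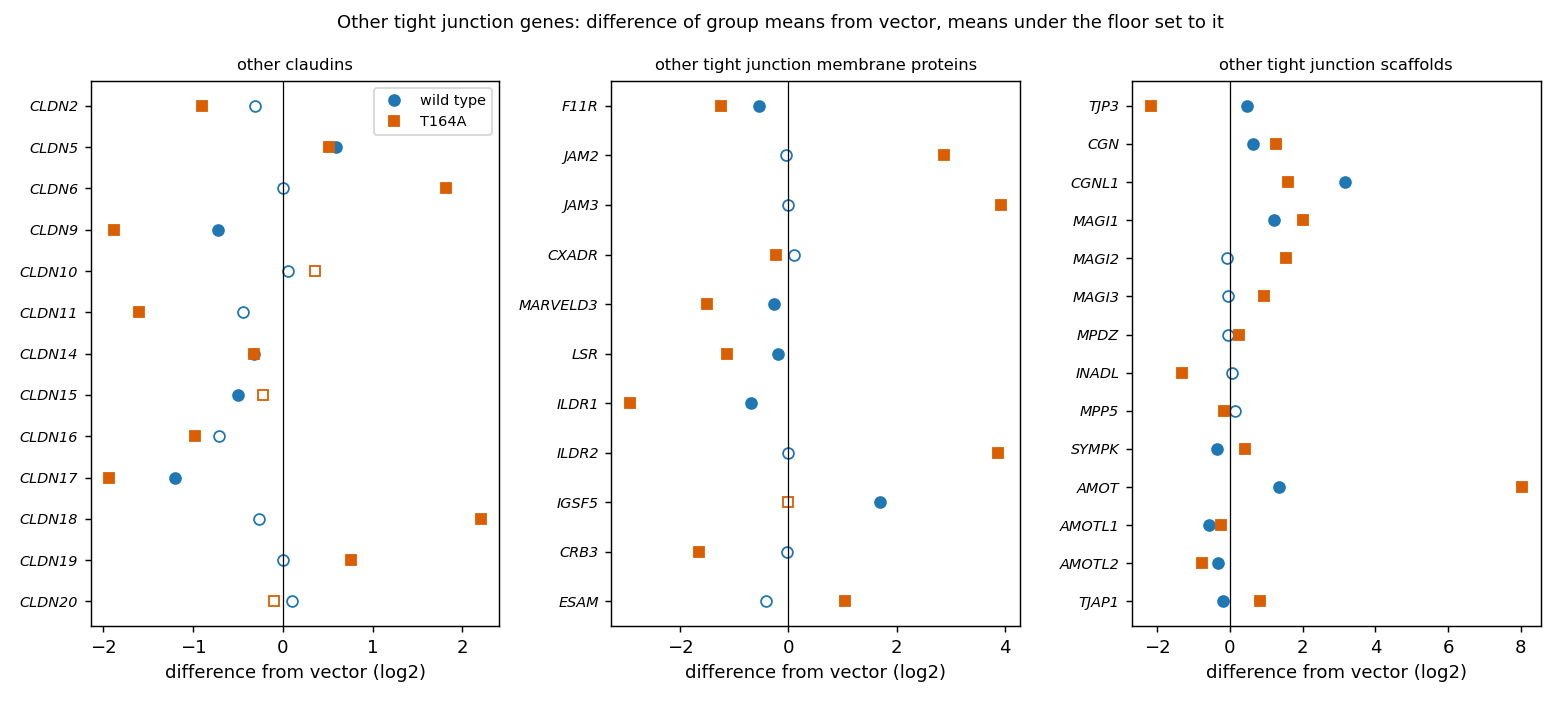
Difference from vector in log2 value (horizontal axis), with group means under the floor set to it, for other claudins, other tight junction membrane proteins and other scaffolds (vertical axis), wild type as circles and T164A as squares, filled where called by limma. Genes under the floor in all groups, and a few others, are not drawn. Genes of each list lie on both sides of 0, and AMOT is the farthest to the right at 8.03 for T164A.

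Adhesion genes and regulators outside the tight junction were measured in the same libraries. CDH1 (E-cadherin), the adhesion protein of epithelia, fell by 2.12 (log2, SE 0.05) with T164A and differed by 0.08 with the wild type (adjusted p = 0.22 by limma), a difference that was called higher after quantile normalization (0.29, adjusted p = 1.24e-05) and under no other of the 24 alternatives. EPCAM, the partner of CLDN7, fell by 1.25 (SE 0.07) with T164A and rose by 0.22 (SE 0.06) with the wild type, a call lost under 2 of 24 alternatives (0.13 with close libraries averaged, adjusted p = 0.506). All 12 listed epithelial regulators fell with T164A, where 27.2% of all genes were lower. With the wild type 10 were lower and 1 higher, where the shares over all genes were 24.5% and 21.0%. EHF, an ETS factor, was the one that rose, from 9.49 in vector to 11.65, and stood at 4.91 with T164A. Of 6 listed repressors of claudin and cadherin genes, 5 rose and 1 fell with T164A (37.1% and 27.2% over all genes), and ZEB1 rose from 4.61 to 8.96. With the wild type 4 of the 6 fell and 1 rose (24.5% and 21.0% over all genes). After quantile normalization the counts of higher and lower genes with T164A were 3 and 6 for the other membrane proteins, 8 and 6 for the scaffolds, 0 and 12 for the regulators and 5 and 1 for the repressors. Over all 20166 genes they were then 6201 and 6940. The part of these regulators in the change of the members was not tested.

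Across the 16 libraries, the 2 genes most like each member were found by Pearson correlation among 11160 genes, as a description that shares groups and libraries. CLDN1 lay closest to DSG3 and CDKN2B (each r = 0.999), CLDN3 to SLC12A8 (0.991) and PPAP2A (0.988), and CLDN4 to SYT7 (0.995) and CPT1A (0.994). CLDN7 lay closest to P4HTM (0.996) and TMEM125 (0.995), CLDN8 to GOLGB1 (0.976) and DTWD1 (0.974), and OCLN to ZNF558 (0.996) and ATL3 (0.994). For CLDN12 the second was MYO6 (0.993), for TJP1 the second was GPR126 (0.990), and for MARVELD2 CDH1 was among the 2 (0.994). These points fall in 3 groups with different means, so no p is given.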

How the data were processed

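Per the labels' protocols, TruSeq libraries were made from poly-A RNA of RWPE1 cells, 16 in all. The authors deposited a table of log2 values with a column per library. The sources used here do not give the transformation. DESeq, Cufflinks 2.0.2, TopHat2 2.0.4, CASAVA 1.8.2 and the GRCh37 build are listed, with no role or order, per the submitters' processing notes. At high levels (above 11.5) the values lie on steps, which give the depth estimates, but not at low levels, so no count test was run. Of 21594 rows, 1732 shared 304 symbols, and the row with the highest mean was kept for each, leaving 20166.

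All 16 libraries entered 1 limma model (limma 3.58.1, R 4.3.3, variance trend, 13 residual degrees of freedom). The 3 group differences were tested two-sided at 0.05, p-values being adjusted by Benjamini-Hochberg across all 20166 genes. The code was tested on simulated data. No pair of libraries agreed within sampling noise (chi-square per degree of freedom 4.34 to 152 over 547 genes), so each counted once. Members and lists were chosen with earlier results of these data known. Named genes are the members, 10 junction genes, other claudins with a highest group mean of 6 or more, and the 2 genes most correlated with each member. Some genes that met this rule, and the construct's own gene, are not reported here. Alternatives were quantile normalization, 2 filters on low values, only the groups compared, no variance trend and array weights. A minimum fold of 1.2, close libraries averaged, and leaving out each library were also run. For genes outside the member list these alternatives were added after seeing the data. Of the genes chosen by correlation only CDH1 was put through them.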

Additional observations from a re-analysis of the deposited data

Results flagged for a closer look

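Within groups of 4 to 6 libraries, 57 combinations of gene and group were checked for a single library far from the rest, and 7 were found; chance alone flags about 1 in 20 such groups. In vector cells replicate 5 was the highest for CLDN4 (9.94, the others at 9.55 to 9.68), CLDN7 (11.73, the others at 11.495 to 11.58) and LSR (11.40, the others at 10.94 to 11.06). Among wild-type libraries replicate 14 was the lowest for CLDN4 (10.67, the others at 11.16 to 11.30) and CLDN7 (11.45, the others at 11.73 to 11.79). Among T164A libraries replicate 93 was the highest for CLDN12 (10.35, the others at 10.01 to 10.07) and the lowest for LSR (9.59, the others at 9.99 to 10.07). By the chi-square distance over 547 genes, wild-type replicate 14 and T164A replicate 93 also lay farthest from the rest of their groups (at least 91 and 92.4 per degree of freedom). Vector replicate 5 lay at 39.4 to 64.5, no farther than vector replicates 1 and 2 lay from replicates 3, 4 and 6 (57.7 to 68.7). The cause was not tested.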

How the results depend on the processing

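No paired analysis was possible because the groups share no replicate numbers. No member, and no other gene put through the alternatives, changed direction in a called comparison. The count of members higher with the wild-type construct was 5, and 3 when only genes with a mean of 6 or more were tested, since CLDN3 and CLDN8 are then not tested; it ranged from 4 to 5 when 1 library was left out. TJP1 against vector with the wild type was lost without variance trend (adjusted p = 0.0701), with a minimum fold of 1.2 (1) and with close libraries averaged (0.404). CLDN7 with the wild type was gained with quantile normalization (0.22, adjusted p = 0.0352) and with array weights (0.19, adjusted p = 0.0123), and CLDN12 with T164A with array weights (-0.15, adjusted p = 0.0254). Requiring a value above 0 in any library removed no gene. For the genes outside the member list that were put through the alternatives, a step added after seeing the data, 1876 values kept their side of the threshold. Another 47 lost it and 12 gained it. Quantile normalization moved the median of all genes by -0.08, -0.21 and 0.12 (log2) for wild type minus vector, T164A minus vector and wild type minus T164A, and the share of calls that were higher from 46.2% to 38.1%, 57.7% to 47.2% and 43.2% to 51.4%. Depth limits CLDN3 and CLDN8, whose levels in T164A lie under the floor.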

Other observations

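The adherens junction genes, which hold cells together below the tight junction, changed in both directions in T164A cells. Of 12 listed, 5 rose and 7 fell, where 37.1% of all genes were higher and 27.2% lower. The nectins PVRL4 and PVRL1 fell from 11.73 to 7.00 and from 14.33 to 11.89 (log2 group means), while PVRL3 rose from 4.51 to 9.09. CTNNB1 (beta-catenin), which links cadherins to the actin cytoskeleton, rose by 1.23 (SE 0.05, adjusted p = 1.73e-17 by limma) as CDH1 fell. CDH2 (N-cadherin), of the mesenchymal list, rose from 5.07 to 10.49. These genes were chosen after their values were seen.

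The polarity proteins, which position the tight junction along the cell, were measured as well. Of 8 listed, 3 rose and 5 fell with T164A (37.1% and 27.2% over all genes), and 2 rose and 5 fell with the wild type (21.0% and 24.5% over all genes). LLGL1 and LLGL2, related basolateral proteins, moved in opposite directions with T164A, LLGL1 from 10.53 to 11.24 and LLGL2 from 10.95 to 9.37. In the scaffold and membrane protein lists, INADL (PATJ), a scaffold of the Crumbs complex, fell by 1.31 (SE 0.06) with T164A, and CRB3, the membrane protein of that complex, fell from 8.09 to 6.43. These too were chosen after their values were seen.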
